A study of Mus musculus with 5 samples.

Results

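The transcription factor ATF4 and 39 genes of amino acid supply and one-carbon metabolism were followed in cells sorted from regenerating mouse muscle. The 40 genes were taken by symbol from the 28001 genes of the deposited count tables, and each symbol matched 1 row. By role they were 6 regulators and stress feedback genes, 10 genes of amino acid synthesis, 9 of one-carbon and purine metabolism, 7 amino acid transporters and 8 cytosolic aminoacyl-tRNA synthetases. The study sampled mesenchymal progenitors, the fibroblast-like stromal cells of muscle, through a regeneration time course. Each of its 5 groups was 1 single-cell library (10X Chromium 3' chemistry, version 2), so every ratio below compares a pair of libraries or cells within 1 library.

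The groups were muscle 1, 2, 4 and 14 days after injury with notexin, a snake venom toxin that destroys myofibres, and uninjured muscle, which the labels call quiescent. All mice, the uninjured ones included, were C57BL/6J of genotype Hic1CreERT2/CreERT2;Rosa26LSLtdTomato/+. Both Hic1 alleles thus carried the tamoxifen-activated recombinase. They were given 2.5 mg of tamoxifen in 100 uL of sunflower oil on each of 5 days, at 8 weeks of age, and then left for 10 days. The sort therefore holds cells that had used the Hic1 promoter during labelling, and their progeny, from whole hindlimb muscle. The number of animals behind a library is not given in the sources used here.

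ATF4 is the main effector of the integrated stress response. When a kinase such as GCN2 or PERK phosphorylates the initiation factor eIF2, general translation slows while translation of the Atf4 transcript increases, so the protein can act with little change in its own mRNA. ATF4 then activates genes that synthesise, import and charge amino acids onto tRNA, together with stress feedback genes such as Trib3, Chac1 and Ddit3. One-carbon metabolism starts from serine, whose side-chain carbon is carried on folate in the mitochondria and the cytosol and is used to build purines and thymidylate.

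Of 17213 deposited barcodes, 17085 had at least 500 genes and at most 10% mitochondrial UMIs (unique molecular identifiers, 1 per captured transcript) and were kept. A cell with at least 5 UMIs of Tnmd, Fmod, Kera and Chad together was called a tenocyte, and one with at least 5 of Rgs5, Kcnj8, Abcc9 and Higd1b a mural cell. The 6 cells that met both rules were left out. The remaining cells numbered 1900, 4536, 2407, 3810 and 2424 in the quiescent, day 1, day 2, day 4 and day 14 libraries, the tenocytes 126, 183, 99, 182 and 804, and the mural cells 112, 97, 42, 114 and 243. In the remaining cells all 7 progenitor markers (Pdgfra, Dcn, Lum, Ly6a, Cd34, Col1a1 and Col3a1) had at least 20 CPM (UMIs scaled to a common total for each class and library) in every library, and their summed level was 37884, 11693, 15302, 34216 and 39231 CPM. All 7 also had at least 20 CPM in tenocytes and mural cells of every library. They summed to 38469 CPM in quiescent and 17054 CPM in day 1 tenocytes, so they do not set the remaining cells apart from tenocytes. In mural cells the sums lay between 4401 and 9909 CPM. Tenocyte markers outside the rule summed to between 2909 and 10191 CPM in tenocytes and between 57.2 and 260.4 CPM in remaining cells, and mural markers outside the rule to between 1766 and 5882 CPM in mural cells and between 168 and 350.0 CPM in remaining cells. Thbs4 made up most of the tenocyte sum, with 8772 CPM at day 1. From quiescent to day 1 tenocytes, Scx, Mkx, Cilp2 and Col11a1 went from 121, 144, 243 and 613 CPM to 6.92, 50.5, 24.2 and 75.4 CPM. The genes of the tenocyte rule summed to 13583 and 3255 CPM in these tenocytes, and those of the mural rule to 15563 and 4350 CPM in mural cells. Macrophage markers summed to at most 12.4 CPM and Schwann cell markers to at most 116 CPM in the remaining cells. Summed UMIs of the remaining cells ran between 7309210 (quiescent) and 42679103 (day 1), with a median of 3883 UMIs per quiescent cell and 11165 per day 2 cell. The mural sums were thin, with 196686 UMIs in the quiescent library. Between 8 and 26 barcodes were shared by any pair of libraries.

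At 1 day after injury, the 2-fold higher calls in CPM in the remaining cells were found among genes of amino acid synthesis, one-carbon and purine metabolism, transport and tRNA charging, and for none of the 6 regulators and stress feedback genes. In these cells 18 of the 40 reached a 2-fold higher level at day 1 than in the quiescent library and none a 2-fold lower one. A call required at least 20 CPM and 10 UMIs in the higher library. Only 3 of the 6 regulators and stress feedback genes met this level (Atf4, Atf5 and Ddit3), so the rest could not be called. Among all 6045 genes at that level, 15.5% were 2-fold higher and 24.3% were 2-fold lower. The 18 were 5 synthesis genes (Asns, Phgdh, Psat1, Psph and Got1), 7 one-carbon and purine genes (Shmt1, Shmt2, Mthfd1, Mthfd2, Pfas, Gart and Atic), 1 transporter subunit (Slc3a2) and 5 synthetases (Wars, Nars, Mars, Iars and Lars). The median log2 ratio was 1.21 over the 36 members with at least 5 CPM in either library and 1.13 over all 40, against -0.34 over all genes. Of the 30 members that reached 20 CPM in any library, 22 had their highest level at day 1, beside 26.6% of 6498 genes. Some of the 30, such as Shmt1, reached 20 CPM at day 1 alone and so could only be counted there.

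The level requirement was met by 29 members, and some met it only through their day 1 level. Among the 26 members whose mean over the 5 libraries was at least 20 CPM, 16 were called higher, beside 804 of 5351 genes of the same mean level. Values are CPM, and another scaling moves them all together. Scaling by TMM (trimmed mean of M values) or by DESeq2 size factors moved the log2 ratio of the median gene at day 1 up by 0.48 and 0.54. The all-gene split changed with it, to 1859 higher and 746 lower by TMM and 1988 higher and 699 lower by size factors, against 935 higher and 1470 lower by totals. The members' median less the all-gene median was 1.54, 1.53 and 1.52 by totals, TMM and size factors. By TMM and by size factors alike 25 members were called higher, Atf4 among them at 2.11-fold and 2.21-fold. With 1 library per group no difference could be tested, and all intervals below are 95% intervals for counting error alone.

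**Figure D1:**
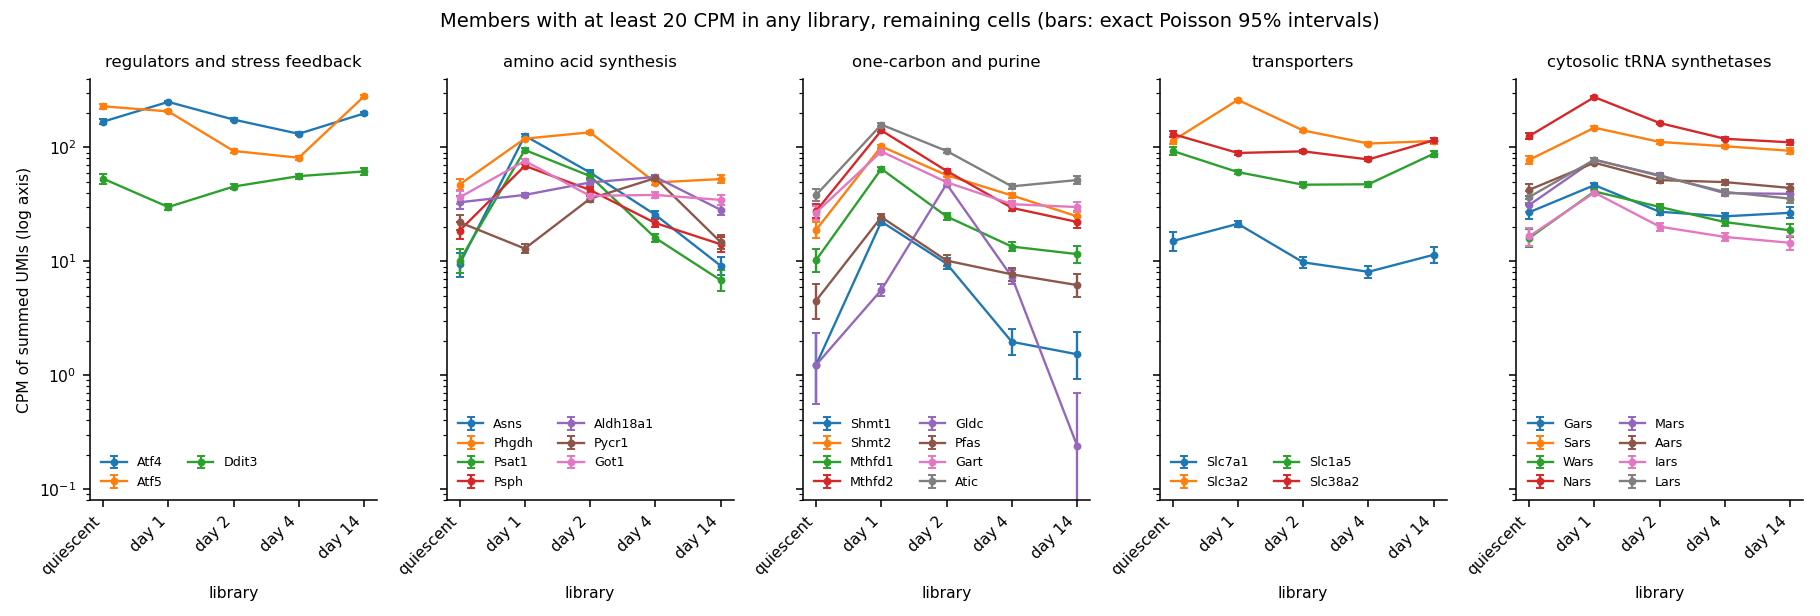
CPM of summed UMIs (log axis) in the remaining cells of each library, for the 30 members that reached 20 CPM in any library, in 1 panel per role. Lines join the libraries of 1 gene and bars are exact Poisson 95% intervals. Of the 30 genes 22 peak at day 1, some of which, such as Shmt1, reached 20 CPM there alone. Atf5, Ddit3, Slc1a5 and Slc38a2 have their highest value in the quiescent or day 14 library.

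The enzymes of asparagine and serine synthesis were highest on days 1 and 2. Asns, which makes asparagine from aspartate and glutamine, had 9.44, 127, 60.2, 25.6 and 9.16 CPM in the quiescent, day 1, day 2, day 4 and day 14 libraries. The day 1 level was 13.4-fold that of the quiescent library (10.6 to 17.3), and the day 14 level lay back at it (0.970-fold, 0.713 to 1.33). Psat1, the aminotransferase of serine synthesis, had 10.1, 95, 56.1, 16.0 and 6.83 CPM in the same order. It was 9.38-fold higher at day 1 (7.46 to 12.0) and 5.54-fold higher at day 2 (4.39 to 7.09). Psph, the phosphatase of the last step to serine, had 18.6, 69.0, 42.3, 21.7 and 14.1 CPM, which was 3.71-fold higher at day 1 (3.12 to 4.43).

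Phgdh, the dehydrogenase that opens the serine pathway, followed a different course from the other enzymes of that pathway. Its level was 47.2, 119, 136, 49.2 and 52.8 CPM, highest at day 2 and close to the quiescent value at day 4 (1.04-fold, 0.927 to 1.18). The proline enzymes came later still. Pycr1, the mitochondrial reductase that forms proline, had 22.0, 12.9, 35.5, 53.8 and 14.8 CPM, 1.70-fold lower than quiescent at day 1 (1.42 to 2.03) and 2.44-fold higher at day 4 (2.07 to 2.89). Its day 1 ratio came closer to the quiescent value under other scalings, at 0.832-fold by TMM and 0.869-fold by size factors. Aldh18a1, which makes the proline precursor from glutamate, had 33.0, 38.3, 49.3, 55.1 and 28.4 CPM and stayed under 2-fold at every day. These 2 genes were the only members of the 30 with their highest level at day 4.

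The other synthesis genes differed less. Got1, the cytosolic aspartate aminotransferase, had 36.4, 76.1, 37.5, 38.3 and 34.6 CPM, so that its day 1 level was 2.09-fold higher (1.85 to 2.38) and the later days were near the quiescent value. Gpt2, a mitochondrial alanine aminotransferase, was under 9 CPM in the remaining cells of every library. Cth and Cbs, the transsulfuration enzymes that make cysteine from homocysteine, were at or under 2.17 CPM in each of them.

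Promoter stretches of 7 members that hold a searched motif are shown, so that the letters of the ATF4 response element can be seen beside the levels. The sequences are those of RefSeq on GRCm38.p6, 250 bases before to 50 after the annotated start, and 33 of the 40 members had an entry (not Cth, Pfas, Slc7a5, Slc1a5, Wars, Nars and Lars). Matches on either strand are in capitals. They mark the C/EBP-ATF response element, searched as TGATGNAAN, or the E-box CACGTG to which MYC and related factors bind. Each stretch has 150 bases, read 5′ to 3′ on the gene's strand, with -1 the base before the start. The first 4 had a motif and a day 1 ratio of at least 2; Slc7a11, Chac1 and Pycr1 were chosen after their values were seen.
Asns, chr6:7693210-7693359, minus strand, -150 to -1: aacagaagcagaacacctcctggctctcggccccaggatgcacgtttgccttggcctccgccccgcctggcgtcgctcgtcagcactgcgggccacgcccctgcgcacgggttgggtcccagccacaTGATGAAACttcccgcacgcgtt
Atic, chr1:71557006-71557155, plus strand, -150 to -1: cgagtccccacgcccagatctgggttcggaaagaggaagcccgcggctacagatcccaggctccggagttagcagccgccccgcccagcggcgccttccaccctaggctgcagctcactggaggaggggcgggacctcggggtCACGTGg
Iars, chr13:49682005-49682154, plus strand, -125 to 25: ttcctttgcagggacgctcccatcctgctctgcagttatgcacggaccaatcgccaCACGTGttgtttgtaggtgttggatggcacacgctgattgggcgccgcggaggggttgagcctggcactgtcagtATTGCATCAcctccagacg
Got1, chr19:43524606-43524755, minus strand, -150 to -1: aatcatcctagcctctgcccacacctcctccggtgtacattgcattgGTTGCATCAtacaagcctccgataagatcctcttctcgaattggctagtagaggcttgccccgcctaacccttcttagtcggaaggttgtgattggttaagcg
Slc7a11, chr3:50443614-50443763, minus strand, -150 to -1: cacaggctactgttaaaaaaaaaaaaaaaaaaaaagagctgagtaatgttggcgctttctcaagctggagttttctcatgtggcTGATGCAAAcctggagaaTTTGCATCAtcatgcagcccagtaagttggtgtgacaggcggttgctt
Chac1, chr2:119350992-119351141, plus strand, -250 to -101: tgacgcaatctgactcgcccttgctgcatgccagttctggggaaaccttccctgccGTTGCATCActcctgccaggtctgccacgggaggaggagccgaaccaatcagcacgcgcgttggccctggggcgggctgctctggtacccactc
Pycr1, chr11:120643749-120643898, minus strand, -150 to -1: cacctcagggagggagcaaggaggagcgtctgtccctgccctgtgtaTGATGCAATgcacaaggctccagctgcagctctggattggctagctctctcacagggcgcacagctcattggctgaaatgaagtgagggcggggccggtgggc

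Across the table, 10 of the 33 matched members (30.3%) held TGATGNAAN, against 4.50% of 27025 genes with a promoter entry. The 10 were Trib3, Chac1, Asns, Pycr1, Got1, Slc7a11, Slc1a4, Gars, Aars and Iars, with 2 matches each in Slc7a11 and Aars. The share is a description of sequences, and the members include genes picked for being known ATF4 targets. CACGTG was present in 5 members (15.2%: Aldh18a1, Cbs, Atic, Aars and Iars), against 8.09% of genes, and the cyclic AMP response element TGACGTCA in no member and 2.03% of genes. In 5 promoters of the whole table matches of different motifs overlapped. Slc7a11, the cystine importer, holds a match on each strand, and its level stayed between 1.2 and 3.69 CPM in all 5 libraries. Of the 7 one-carbon and purine genes called at day 1, Atic alone held any of the 3 motifs in this window, Pfas having no entry.

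The one-carbon and purine genes had the largest share of calls among the 5 roles: at day 1, 7 of the 9 were higher and none was lower, with a median log2 ratio of 2.21. Mthfd2, the mitochondrial dehydrogenase and cyclohydrolase that produces formyl-folate, had 27.6, 141, 62.2, 29.5 and 22.2 CPM in the quiescent, day 1, day 2, day 4 and day 14 libraries. That was 5.10-fold higher at day 1 (4.43 to 5.90) and 1.07-fold at day 4 (0.914 to 1.25). Shmt2, the mitochondrial enzyme that takes the carbon from serine, had 18.9, 102, 57.1, 37.9 and 24.8 CPM. It was 5.41-fold higher at day 1 (4.56 to 6.45) and was still 2.01-fold higher at day 4 (1.68 to 2.41).

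The cytosolic arm was higher at day 1 as well. Mthfd1, its trifunctional folate enzyme, had 10.3, 64.8, 24.8, 13.5 and 11.6 CPM, 6.32-fold higher at day 1 (5.02 to 8.06). Shmt1, the cytosolic counterpart of Shmt2, had 1.23, 22.3, 9.54, 1.96 and 1.53 CPM. Its day 1 ratio, 18.1-fold (9.5 to 39.7), rests on 1.23 CPM in the quiescent cells. The purine enzymes Pfas, Gart and Atic, which carry out successive parts of the pathway to inosine monophosphate, were 5.42-fold (3.83 to 7.91), 3.43-fold (2.97 to 3.98) and 4.16-fold (3.69 to 4.70) higher at day 1. Mthfd1l, the mitochondrial formate producer, reached 17.1 CPM at day 1 against 3.01 CPM in quiescent cells and so missed the level required.

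Gldc, the decarboxylase of the glycine cleavage system, had a course of its own. Its level was 1.23, 5.60, 47.8, 7.29 and 0.241 CPM. The day 2 level was 38.8-fold that of the quiescent library (20.4 to 85.0) and 8.53-fold that of day 1 (7.44 to 9.82). At day 4 it was 6.56-fold lower than at day 2 (5.69 to 7.59).

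Among the transporters 1 of 7 was called at day 1. Slc3a2, the heavy chain that carries several amino acid exchangers to the membrane, had 114, 262, 141, 108 and 114 CPM, 2.29-fold higher at day 1 (2.13 to 2.46). Its light chain Slc7a5, which exchanges glutamine for leucine, had 19.4 CPM at day 1 against 5.88 CPM in quiescent cells (3.31-fold, 2.43 to 4.60), just under the level required. The glutamine carriers were not higher. Slc38a2 had 131, 89.4, 92.4, 78.4 and 115 CPM and Slc1a5 had 93.2, 60.7, 47.1, 47.5 and 88.0 CPM. Slc1a5 was 1.53-fold lower at day 1 (1.41 to 1.67) and 1.98-fold lower at day 2 (1.81 to 2.17), under 2-fold at each day. Its day 1 ratio was 0.923-fold by TMM and 0.964-fold by size factors. The day 1 ratio of Slc38a2, 1.47-fold lower (1.37 to 1.58), came to 1.01-fold higher with DESeq2 size factors. Slc7a1, the importer of arginine and lysine, reached 21.3 CPM at day 1 against 15.0 CPM in quiescent cells, and Slc1a4, a neutral amino acid carrier, stayed between 5.47 and 6.09 CPM in all libraries.

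Every cytosolic synthetase among the members had its highest level at day 1. Nars, which charges the asparagine tRNA, had 126, 276, 164, 119 and 111 CPM, 2.20-fold higher at day 1 (2.05 to 2.35). Wars (tryptophan) had 16.0, 41.1, 30.0, 22.1 and 18.7 CPM, 2.57-fold higher (2.13 to 3.12). Mars (methionine) was 2.49-fold (2.18 to 2.86), Iars (isoleucine) 2.42-fold (2.01 to 2.94) and Lars (leucine) 2.13-fold (1.88 to 2.42) higher. Sars, Gars and Aars, for serine, glycine and alanine, reached 1.91-fold, 1.73-fold and 1.73-fold and were not called in CPM. They passed 2-fold by TMM (2.71-fold, 2.45-fold and 2.45-fold) and by size factors (2.83-fold, 2.56-fold and 2.56-fold). In CPM none of the 8 was called at days 2, 4 or 14. At day 2 Wars was 2.17-fold by TMM and 2.29-fold by size factors, and Mars 2.11-fold and 2.23-fold.

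In CPM, no regulator or stress feedback gene was called higher at any day in these cells. Only 3 of the 6 met the level required at any day (Atf4, Atf5 and Ddit3). Atf4 itself had 168, 251, 176, 132 and 199 CPM. The day 1 level was 1.49-fold that of quiescent cells (1.41 to 1.58), 2.11-fold by TMM and 2.21-fold by DESeq2 size factors, and the day 4 level was the lowest of the 5. Ddit3, which encodes the stress factor CHOP, had 53.2, 30.0, 45.3, 56.0 and 61.5 CPM and was 1.78-fold lower at day 1 (1.58 to 1.99). Its day 1 ratio was 0.798-fold by TMM and 0.833-fold by size factors. Trib3, a pseudokinase that restrains ATF4, stood at 2.84 CPM at day 1 against 6.84 CPM in quiescent cells, and Chac1, which degrades glutathione, was at or under 0.399 CPM everywhere. Sesn2, an inhibitor of the growth kinase mTORC1, was at 5.62 CPM at day 1 against 1.78 CPM in quiescent cells (3.16-fold, 1.81 to 6.02), under the level required.

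Atf5, a close relative of ATF4 that is translated under the same control, had 229.8, 207, 93.2, 81.2 and 281 CPM. It was 2.47-fold lower than quiescent at day 2 (2.32 to 2.62) and 2.83-fold lower at day 4 (2.66 to 3.01), and in CPM it was the only member called lower at any day in the remaining cells. Days 2 and 4 stood together below the other 3 libraries. With 5 CPM added, 82 of all genes were more than 2-fold lower in both day 2 and day 4 than in each of the other 3 libraries, and Atf5 was the 1 member among them. Its direction at day 1, 0.901-fold (0.855 to 0.950), turned to 1.28-fold by TMM and 1.33-fold by size factors.

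Later days drew closer to the quiescent library, which all 4 comparisons share. The level required was met by 27, 23 and 20 members at days 2, 4 and 14. At day 2, 9 members were higher (Asns, Phgdh, Psat1, Psph, Shmt2, Mthfd1, Mthfd2, Gldc and Atic) and Atf5 was lower, beside 11.3% of all genes higher and 17.4% lower. The day 2 median was 0.58 for the members and -0.19 for all genes. By day 4, 3 members were higher (Asns 2.71-fold, Pycr1 2.44-fold and Shmt2 2.01-fold) and Atf5 was lower, beside 6.34% and 9.92%, with medians of 0.15 and -0.07. At day 14 no member was called in either direction, beside 1.04% higher and 0.643% lower. The all-gene split at day 2, 687 higher and 1055 lower, became 1044 and 721 by TMM and 1244 and 614 by size factors, and that at day 4, 377 and 590, became 449 and 477 by TMM and 498 and 428 by size factors. The summed progenitor markers given above were lowest at day 1, and their part in the members' ratios was not tested.

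Shares of cells gave the same picture for the leading genes when each cell was thinned to 2500 UMIs, which kept 4471 of 4536 day 1 and 1510 of 1900 quiescent cells. A UMI of Asns was then found in 22.7% of 4471 day 1 cells (21.4 to 23.9; 51.2% before thinning), against 2.19% of 1510 quiescent cells (1.51 to 3.06; 3.16% before). For Mthfd2 the shares were 24.3% at day 1 and 5.76% in quiescent cells. Gldc had a UMI in 7.35% of day 2 cells, against 0.331% of quiescent cells. Atf5 was found in 20.7% of day 2 and 19.1% of day 4 cells, against 39.8% of quiescent cells. No class of these cells is known to lack these genes, so the share that free RNA would give was not measured.

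**Figure D2:**
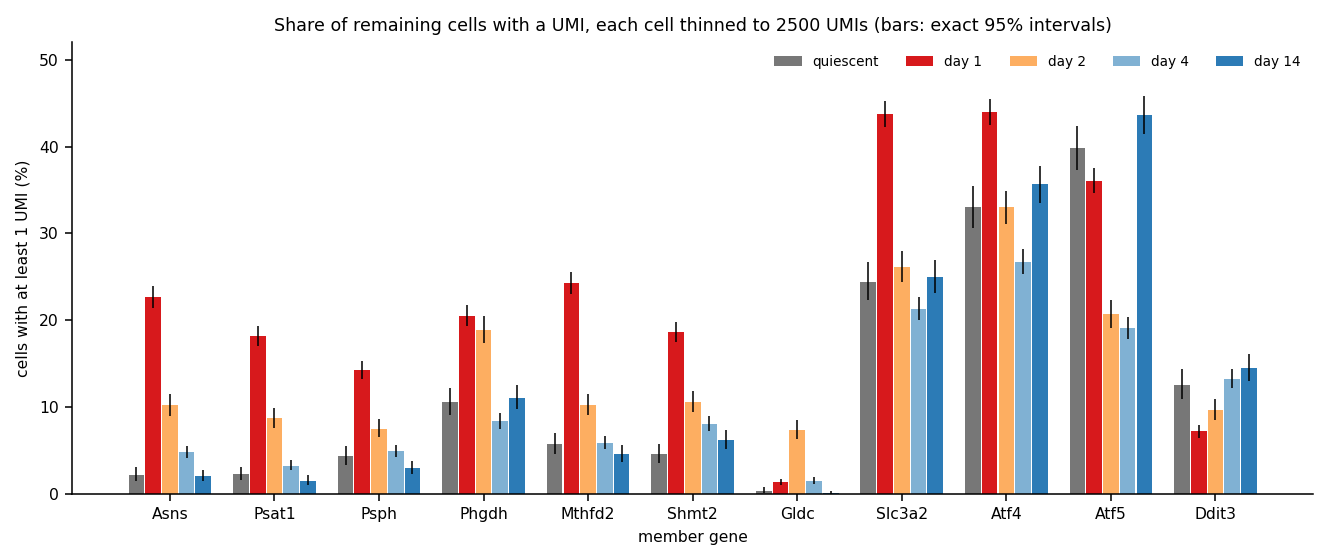
Percent of remaining cells with at least 1 UMI of 11 members after thinning every cell to 2500 UMIs, in the 5 libraries. Bars are shares with exact binomial 95% intervals; Asns, Psat1, Psph, Mthfd2 and Shmt2 are highest at day 1, Gldc at day 2, and Atf5 is lowest at days 2 and 4.

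The levels of some members at day 2 differed between cells with and without UMIs of G2/M markers. Among 20 markers of G2 and M phase, 16 were 2-fold higher than quiescent at day 2, 10 at day 4 and none at day 1 or day 14. Of 20 S phase genes, 12 were higher at day 1, 14 at day 2, 4 at day 4 and none at day 14. Within the day 2 library, 8 of the 27 members at the required level were at least 2-fold higher in the 1139 cells with 2 or more G2/M UMIs than in the 953 cells with none (Phgdh, Psat1, Shmt2, Mthfd1, Mthfd2, Gldc, Atic and Mars), beside 8.12% of all genes; none was 2-fold lower, beside 5.87%. The cells with G2/M UMIs were deeper, with a median of 16943 UMIs against 6953, and the parts of cycle phase and depth were not tested apart.

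Phgdh had 182 CPM in the day 2 cells with G2/M UMIs and 46.5 CPM in those with none (3.90-fold, 3.5 to 4.36). Psat1 had 75.7 and 17.5 CPM (4.32-fold, 3.62 to 5.19) and Mthfd2 79.1 and 29.0 CPM (2.73-fold, 2.37 to 3.15). Atf4 differed little between these cells, with 181 CPM in cells with G2/M UMIs and 166 CPM in those with none, while Slc1a5 had 38.5 CPM in cells with G2/M UMIs and 64.1 CPM in those with none. At day 4 Phgdh and Psat1 were again higher in the 487 cells with G2/M UMIs than in 2821 with none (2.50-fold and 2.81-fold). They were 2 of 25 members at the required level, beside 4.90% of genes, and none was lower, beside 4.7%.

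No G2/M marker reached the level required at day 1, so leaving out cells with a G2/M UMI could say little about cycling there. In cells without a G2/M UMI, 18 members were 2-fold higher than in their quiescent counterparts at day 1. At day 2 they numbered 2 rather than 9. Those 2 were Asns, at 38.5 CPM against 9.18 CPM (4.20-fold, 3.19 to 5.60), and Gldc, at 26.7 CPM against 1.31 CPM (20.3-fold, 10.5 to 45.1). The median at day 2 was then 0.12. Thinning every cell to 2500 UMIs left 16 members at day 1 and 4 at day 2, namely Asns, Psat1, Shmt2 and Gldc.

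S phase was compared within day 1 and day 2, a comparison added after the data had been seen. Day 1 cells with 3 or more S phase UMIs of 2500 numbered 1211 and cells with none 1241. Of 30 members at the required level 1, Shmt1, was 2-fold higher in the former (30.4 against 11.9 CPM, 2.55-fold, 1.72 to 3.84), beside 1.62% of genes. None was 2-fold lower, beside 2.36%. The cells with S phase UMIs were deeper, with a median of 11906 UMIs against 7004. Asns at day 1 had 140 CPM in the cells with S phase UMIs and 89.6 CPM in those with none. Quiescent cells, thinned to 2500 UMIs in the same way, had 10.1 CPM. At day 2, 472 cells with S phase UMIs and 1017 with none gave 12 of 29 members higher, beside 9.72% of genes, and none lower, beside 6.46%. The cells with S phase UMIs were deeper (median 21020 against 9016 UMIs).

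**Figure D3:**
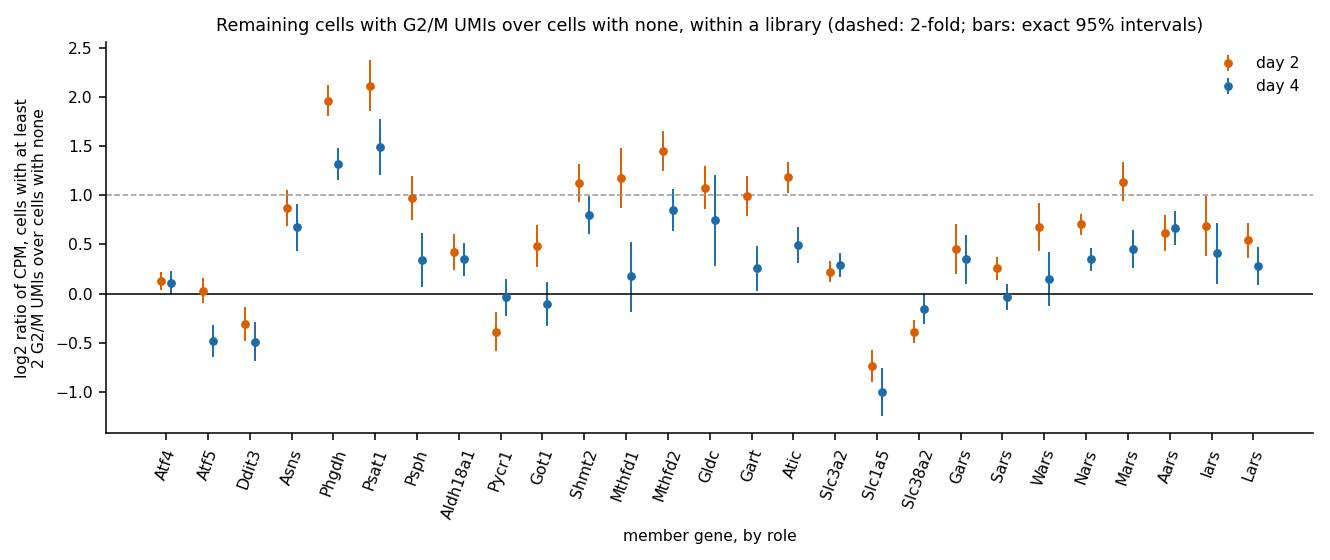
Log2 ratio of CPM between remaining cells with at least 2 G2/M UMIs and cells with none, within the day 2 and day 4 libraries, for members with at least 20 CPM in either library; bars are exact 95% intervals for counting error. Phgdh and Psat1 stand above 2-fold (dashed) at both days, and Slc1a5 is the lowest of the drawn members at both days.

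Tenocytes, the cells that build tendon and muscle attachments, shared several of the day 1 calls, with 27 members at the required level. In them 10 members were 2-fold higher at day 1 (Asns, Psat1, Got1, Shmt2, Mthfd1, Gart, Atic, Wars, Mars and Iars) and 2 were lower (Pycr1 and Gpt2), beside 13.3% of genes higher and 21.6% lower (767 and 1247 genes by totals, 1249 and 873 by TMM, 1189 and 898 by size factors). Counting intervals excluded 1 for 8 of the 10 (not Got1 and Wars) and for both lower genes. Asns had 11.9, 84.4, 23.2, 18.6 and 9.71 CPM in the quiescent, day 1, day 2, day 4 and day 14 tenocytes, 7.12-fold higher at day 1 (3.18 to 19.8). Psat1 had 5.93, 49.8, 13.6, 9.95 and 2.84 CPM, the quiescent value from 3 UMIs, and was 8.40-fold higher at day 1 (2.76 to 41.7). Both enzymes were thus highest in the same library as in the remaining cells. Shmt2 had 19.8, 88.5, 35.4, 37.1 and 36.5 CPM and Mthfd1 19.8, 71.2, 16.4, 18.6 and 18.7 CPM, which was 4.48-fold (2.36 to 9.57) and 3.60-fold (1.88 to 7.74) higher at day 1. Phgdh had 113, 170.2, 61.4, 71.6 and 121 CPM in tenocytes, so its day 2 level there was its lowest, where that of the remaining cells was their highest. Gpt2 ran in the other direction, with 45.5, 11.8, 5.45, 22.5 and 24.4 CPM, 8.34-fold lower at day 2 (2.85 to 33.2).

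Quiescent tenocytes differed from the remaining cells of their own library in 4 members that were 2-fold higher (Phgdh, Pycr1, Gpt2 and Mthfd2, beside 8.73% of genes) and 1 that was lower (Got1, beside 12.7%). Gpt2 was 12.8-fold higher (6.97 to 23.3) and Pycr1 3.14-fold higher (2.11 to 4.55) in quiescent tenocytes than in quiescent remaining cells. The relation changed at day 2, when no member was higher in tenocytes and 8 were lower (Asns, Phgdh, Psat1, Psph, Got1, Mthfd2, Gldc and Gars), beside 6.87% of genes higher and 6.62% lower. Gldc had 4.09 CPM in day 2 tenocytes, from 3 UMIs, against 47.8 CPM in the remaining cells. Fewer members differed in the other injured libraries. At day 1 none was higher and Got1 and Shmt1 were lower (beside 5.97% and 5.52% of genes), at day 4 Gpt2 alone was higher and none was lower (2.87% and 3.79%), and at day 14 Phgdh, Pycr1 and Gpt2 were higher and none was lower (7.9% and 9.89%). Gpt2 was then 7.37-fold (4.82 to 11.0) higher at day 4 and 6.90-fold (4.80 to 10.1) higher at day 14 in tenocytes than in remaining cells. Members at the required level in these comparisons numbered 21, 29, 27, 24 and 21 in the quiescent, day 1, day 2, day 4 and day 14 libraries.

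Against quiescent tenocytes, day 2 tenocytes had no member higher and 5 lower (Atf5, Psph, Gpt2, Mthfd2 and Gars), beside 11.5% and 16.5%. The interval of Psph included 1, and 1 member was higher by size factors. Members at the required level numbered 23, 23 and 22 at days 2, 4 and 14. At day 4 none was higher and Atf5 and Gpt2 were lower (11.4% and 13.6%), and at day 14 none was higher and Pycr1 was lower (5.57% and 3.34%; 328 and 197 genes by totals, 257 and 219 by TMM, 197 and 269 by size factors). The lower members numbered 1 by TMM at day 4, where Gpt2 was at 0.504-fold, and 2 by TMM and 3 by size factors at day 14. Atf5 had 188, 192, 79.1, 65.0 and 207 CPM in tenocytes, with days 2 and 4 again the low libraries. Atf4 had 198, 237, 162, 116 and 245 CPM and Ddit3 69.2, 47.0, 55.9, 51.1 and 86.0 CPM, neither 2-fold from quiescent at any day. Among the transporters Slc3a2 had 154, 268, 168, 149 and 137 CPM, 1.74-fold higher at day 1 (1.36 to 2.24). Of the synthetases, Mars had 39.5, 85.8, 45, 51.1 and 51.4 CPM (2.17-fold at day 1, 1.35 to 3.68) and Nars 152, 234, 127, 126 and 124 CPM (1.54-fold, 1.2 to 2.00). Of the 19 members that met 20 CPM in every library, none was at least 1.5-fold higher or lower in tenocytes in all 5, beside 3.19% of genes in each direction.

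In mural cells, the pericytes and smooth muscle of small vessels, 13 of the 23 members at the required level were 2-fold higher at day 1 and 1 was lower (Slc38a2). Among all genes at that level 17.5% were higher and 16.8% lower (855 and 821 genes by totals, 1139 and 640 by TMM, 1147 and 623 by size factors). The 13 were Atf5, Asns, Psat1, Shmt2, Mthfd1, Mthfd2, Gart, Atic, Slc3a2, Gars, Wars, Mars and Aars, and counting intervals excluded 1 for 8 of them (not Psat1, Gart, Gars, Wars and Mars). Mthfd1 is counted from 12 UMIs at day 1 against 0 in quiescent mural cells, which is at least 1.90-fold higher when the quiescent sum is set at 3 counts. Asns had 5.08, 79.5, 38.3, 15.0 and 22.0 CPM, the quiescent value from 1 UMI, and its ratio at day 1 was 15.6-fold (2.62 to 636). Atf4 had 234, 352, 201, 93.4 and 196 CPM in these cells, 2.51-fold lower than quiescent at day 4 (1.66 to 3.77).

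At day 2, 9 members were higher in mural cells than in quiescent mural cells (Asns, Phgdh, Psat1, Aldh18a1, Pycr1, Mthfd2, Gldc, Gart and Atic) and Slc38a2 was lower, beside 20.9% and 20.1% of genes (1031 and 991 by totals, 1281 and 841 by TMM, 1366 and 801 by size factors). Counting intervals excluded 1 for 7 of the 9 (not Aldh18a1 and Gart). Members at the required level numbered 24, 17 and 17 at days 2, 4 and 14. Gldc was again at its highest in the day 2 library, with 15 UMIs at day 2, 2 at day 1 and none in the quiescent, day 4 and day 14 libraries. The day 2 level of Gldc was 35.9 CPM, at least 2.36-fold higher when the quiescent sum is set at 3 counts. At day 4 none was higher and Atf4, Slc1a5 and Slc38a2 were lower (18.9% and 12.4%; 2 members were higher by TMM and by size factors), and at day 14 Asns alone was higher and none was lower (11.9% and 3.88%), with an interval that included 1 (4.33-fold, 0.684 to 180.0). Shmt2 had 30.5, 113, 57.5, 51.7 and 39.1 CPM in mural cells (3.71-fold at day 1, 1.58 to 10.6), and Nars 132, 255, 179.7, 118 and 102 CPM (1.93-fold, 1.25 to 3.09).

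Slc38a2, the glutamine carrier, stood out in mural cells. It had 412, 195, 113, 132 and 286 CPM, 2.11-fold lower at day 1 (1.53 to 2.91) and 3.66-fold lower at day 2 (2.52 to 5.36). The day 1 call ended under other scalings, at 0.547-fold by TMM and 0.551-fold by size factors, and the count of 1 lower member was 0 in 5 of 13 alternatives. Its level was 3.14-fold that of the remaining cells in the quiescent library (2.47 to 3.94) and 1.22-fold at day 2 (0.894 to 1.62). Across the 5 libraries, Got1 was at least 1.5-fold higher in mural than in remaining cells in every one, at between 1.61-fold and 2.11-fold, and Phgdh at least 1.5-fold lower in every one, beside 8.09% and 2.38% of genes. The 20 CPM level was met in every library by 21 members. Got1 had 66.1, 123, 79.1, 73.4 and 67.3 CPM in mural cells, and Phgdh 20.3, 28.9, 71.9, 13.3 and 6.12 CPM. Under 4 of 9 other settings, Got1 no longer met the rule in every library. Library by library, the members 2-fold higher in mural than in remaining cells were Ddit3 and Slc38a2 in the quiescent and day 1 libraries, Got1 at day 2, none at day 4 and Asns and Slc38a2 at day 14, beside 18.3%, 17.3%, 7.86%, 15.4% and 18% of genes. Those 2-fold lower numbered 4, 9, 0, 3 and 3, beside 20.2%, 7%, 3.58%, 8.63% and 11.1%, and Phgdh was among them in each library but day 2. In the same order, 18, 28, 27, 23 and 22 members were at the required level. Ddit3 was 4.34-fold higher in mural than in remaining cells at day 1 (3.24 to 5.70), at 130.1 CPM against 30.0 CPM.

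**Figure D4:**
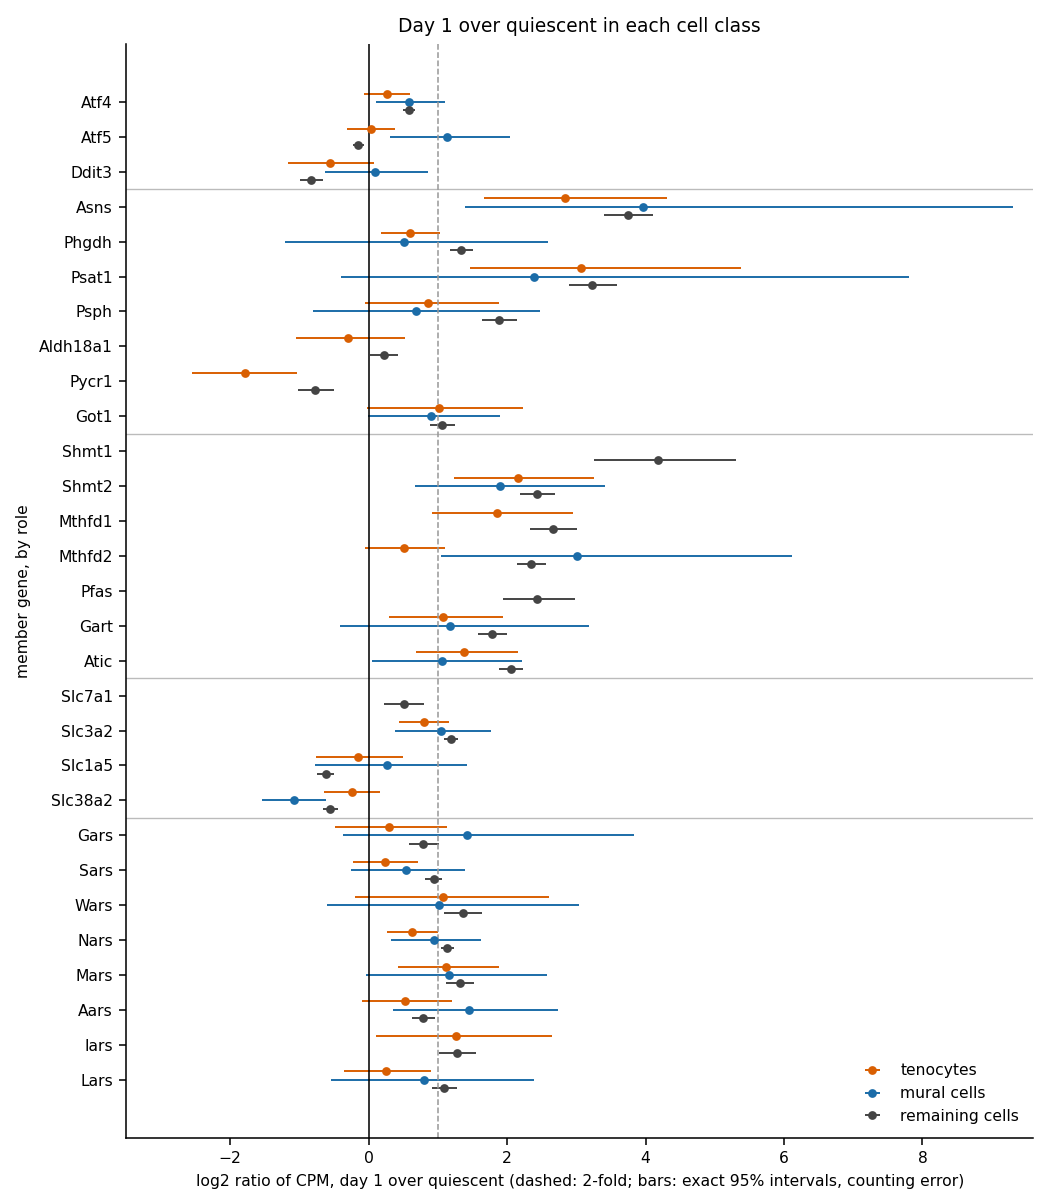
Log2 ratio of CPM, day 1 over quiescent, for the 29 members at the required level in remaining cells, in tenocytes, mural cells and remaining cells; a point is absent where a class missed the level or had no quiescent UMI. Bars are exact 95% intervals for counting error and the dashed line marks 2-fold; Asns lies above it in all 3 classes with its whole interval, and Pycr1 lies below 0 in tenocytes and remaining cells.

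Other genes of the same pathways were taken from 13 lists, and their medians in the remaining cells are drawn beside those of the members. The day 1 counts of these lists stand beside 15.5% of all genes higher and 24.3% lower by totals. All 15 other cytosolic synthetases and scaffold genes met the level at day 1. Of these 12 were 2-fold higher and none lower, with a median log2 ratio of 1.62. Eef1e1, a scaffold protein of the multisynthetase complex, was highest among them at 205 CPM at day 1 against 26.1 CPM in quiescent cells (7.83-fold, 6.79 to 9.09), followed by Farsb (4.36-fold) and Aimp2 (4.24-fold). Of 16 mitochondrial synthetases, 3 reached the level and 1 was called (Rars2, 2.33-fold), with a median of 0.46. Other purine genes followed the members, with 7 of 9 higher (8 met the level) and a median of 1.56, led by Impdh2, the entry to guanine nucleotides (484 against 98.0 CPM, 4.94-fold).

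The remaining one-carbon and amino acid lists were mixed. Of 18 other folate and glycine cleavage genes 8 met the level and 3 were higher at day 1 (Slc19a1, Tyms and Gcsh). Slc19a1, the folate importer, had 66.1 CPM at day 1 against 4.38 CPM in quiescent cells (15.1-fold, 10.7 to 22.1). Of 13 genes of proline, glutamine, glutamate and branched-chain metabolism, 11 met the level, 4 were higher at day 1 and Bckdha was lower. Got2, the mitochondrial aspartate aminotransferase, was 3.34-fold higher. Bcat1, which transaminates branched-chain amino acids, had 5.47, 72.2, 71.6, 47.9 and 4.82 CPM in the quiescent, day 1, day 2, day 4 and day 14 libraries. Of 14 other amino acid transporters only 2 met the level at day 1, so none of the rest could be called. Both were lower by totals, Slc6a6 (2.74-fold) and Slc43a1 (2.53-fold), beside 24.3% of all genes. TMM and size factors moved the median gene at day 1 up by 0.48 and 0.54 in log2, so these 2 calls may not hold under them.

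Of 15 other reported ATF4 targets, 8 met the level at day 1. By totals, 1 of them was higher (Eif4ebp1, a translational repressor, 339 against 119.8 CPM) and 5 were lower (Atf3, Cebpg, Nupr1, Ddit4 and Vldlr). Among all genes 15.5% were higher and 24.3% lower. The median was -0.89 over the 10 with at least 5 CPM in either library and -0.75 over all 15. TMM and size factors moved the median gene at day 1 up by 0.48 and 0.54 in log2, so lower calls near 2-fold may not hold under them. Atf3, a stress-induced factor, had 299, 86.9, 178, 239.9 and 273 CPM, 3.44-fold lower at day 1 (3.26 to 3.63), and Cebpg, a dimerisation partner of ATF4, was 2.98-fold lower (2.56 to 3.48). Vldlr, a lipoprotein receptor, was 11.5-fold lower (9.91 to 13.5). Of 16 endoplasmic reticulum folding genes 15 met the level. At day 1, 4 were higher (Hspa5, Sdf2l1, Manf and Creld2) and none lower, with a median of 0.48.

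Genes of eIF2 control and of growth gave further values at day 1. Eif2s1, the subunit of eIF2 that is phosphorylated, was 4.43-fold higher (4.04 to 4.87). Eif2b3 (2.79-fold) and Eif2b1 (2.62-fold) were also called among 12 genes, of which 8 met the level. Of 8 glutathione and NRF2 genes 4 met the level and 3 were higher (Gss, Hmox1 and Txnrd1). Among 10 MYC and polyamine genes 8 met the level. Myc (149 against 72.6 CPM, 2.06-fold), Srm (3.84-fold) and Amd1 were higher while Mxd4, which opposes MYC, was 4.62-fold lower. Mcm5, a subunit of the replicative helicase, was 31.6-fold higher (18.8 to 57.9) at day 1, when no G2/M marker reached the level required. The part of the cell cycle in the members' day 1 levels was not tested beyond the splits above.

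**Figure D5:**
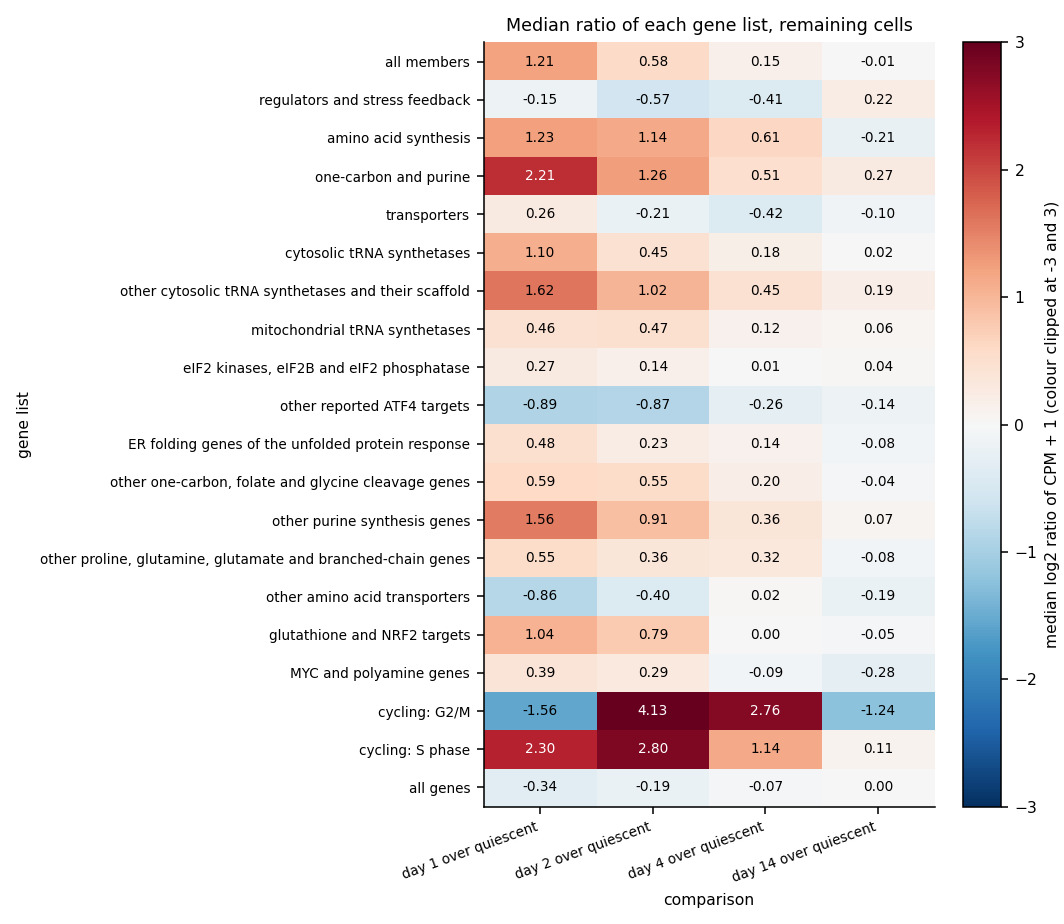
Median log2 ratio of CPM + 1 against the quiescent library for the members, their 5 roles, 13 other lists and all genes in the remaining cells, at days 1, 2, 4 and 14. Each median is over the genes with at least 5 CPM in either library. One-carbon and purine members (2.21), other cytosolic synthetases (1.62) and other purine genes (1.56) are high at day 1, and other reported ATF4 targets (-0.89) are low.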

How the data were processed

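Single-cell libraries of FACS-purified tdTomato cells were made with 10X Chromium Single Cell 3' v2 chemistry, per the labels. The deposited files hold raw UMI counts per gene and barcode. They name Cell Ranger and mm10, per the submitters' processing notes; the version, the cell calling and the use of strand in counting are not stated in these notes. Of 28001 features, 27722 had a record in GENCODE M21. On GRCm38, 8 members overlap a gene on the opposite strand (Atf5, Ddit3, Shmt1, Shmt2, Slc7a5, Slc7a11, Wars and Mars, with Ddit3 and Mars overlapping each other) and Sesn2 overlaps Gm12981 on its own strand, so their counts are less certain.

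Counts were summed per library and class and divided by the class total (CPM). A ratio was called at 2-fold, with 20 CPM and 10 UMIs in the higher library. Medians use log2 of CPM + 1, over the genes with at least 5 CPM in either group compared unless stated. Intervals are exact (Poisson, Clopper-Pearson, and conditional binomial for ratios). UMIs count molecules, and intervals and floors cover counting error only. No doublet caller was run, and cells meeting both class rules were dropped. With 1 library per group no test was possible, so edgeR (4.0.16; TMM) and DESeq2 (1.42.0; size factors) served for scaling alone. The scripts, in Python 3.11.15 with numpy 2.4.6 and scipy 1.17.1, were tested on simulated data. The genes given in full were, per role, the 4 of largest ratio at any day, plus Atf4, and per other list the 3 of largest day 1 ratio; further genes were named after their values were seen. The members and lists were chosen with earlier results of these data known. Alternatives tried were other scalings, cell filters, class rules, thinning, level and fold rules, G2/M-free cells and day 14 as the reference. One gene of the other lists is not reported here.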

Additional observations from a re-analysis of the deposited data

Results flagged for a closer look

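In tenocytes 2 members moved against the other cells at day 2, and the difference between the classes was not tested. Psph had a log2 ratio of -1.05 against quiescent in tenocytes, from 8 UMIs at day 2 and 12 in the quiescent library (2.17-fold lower, 0.817 to 6.13), while in the remaining cells it was 2.27-fold higher (1.90 to 2.73). Mthfd2 had a log2 ratio of -1.16 in tenocytes, from 21 and 33 UMIs (2.28-fold lower, 1.28 to 4.14), while it was 2.25-fold higher in the remaining cells (1.95 to 2.62) and 4.71-fold higher in mural cells (1.14 to 41.6).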

How the results depend on the processing

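No paired analysis was possible because each group is 1 library, and for the same reason no library could be left out. Over 20 results and 246 alternatives, 216 values stayed within 1.5-fold of the reported one and 30 moved further. A reversal could be scored only for a median at least 1.5-fold from quiescent in both settings. That none was scored therefore says little, and the median at day 14 ran between -0.02 and 0.08. The 18 members higher at day 1 in the remaining cells ranged between 14 and 25, and the median at day 2 between 0.12 and 0.86. At day 2 the 9 became 4 with thinning, 15 with no level rule, 14 at 1.5-fold and 2 in cells with no G2/M UMI; at day 4 the 3 became 6 with no level rule and 1 at 50 CPM. At day 1 the 10 in tenocytes became 16 with no level rule and 6 at 50 CPM, and the 13 in mural cells 20 and 8. The 1 member higher in mural cells in every library became 0 by TMM, by DESeq2 size factors, with at least 1000 genes and at most 5% mitochondrial UMIs, and with thinning. The cause of these moves was not tested beyond the construction of each rule. The reference of day 14 was added after the data had been seen and gave 17 members at day 1. Direction turned with the scaling for Atf5 and Slc38a2 at day 1, Ddit3 at day 2, Slc3a2, Gars and Nars at day 4 and Slc3a2 at day 14 in the remaining cells, all under 2-fold by totals. Depth limits the mural cells most: 3 counts in the quiescent library are 15.3 CPM, and 13 quiescent mural cells had the 2500 UMIs needed for thinning.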
